A study of Rattus norvegicus with 12 samples.

Results

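The comparison described here set bone beside a loaded zirconium alloy implant against bone beside a loaded titanium implant, across all genes with a measurable level. It used 6 of the 12 libraries of the series: 3 libraries of loaded Nb3 alloy and 3 libraries of loaded cpTi. Of the 33801 genes in the deposited table, 15268 reached 1 FPKM (fragments per kilobase of gene, scaled by depth) in at least 3 of the 12 libraries and were tested. All rats were labelled wild type (WT). In both groups a mini-implant stood at the first molar site of the upper jaw and was loaded in cycles for 2 weeks, and bone of 4 mm diameter around it was taken. The groups differed in the implant material, which was Zr58Cu25Al14Nb3 (Nb3 alloy) or cpTi titanium. The other 6 libraries, from implants of the same materials left without load, entered the fit and served to show where the difference depended on loading. The sources used here give neither age nor strain of the rats. No label says whether the replicates of a group came from separate animals, so p-values measure only the spread between these samples.

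The title of the series states an interest in how an implant of lower stiffness changes stress and bone formation in the jaw. Bone around an implant is a mixed tissue. Its mineral is laid down by osteoblasts, sensed by the osteocytes embedded in it and resorbed by osteoclasts, and its cavities hold marrow, where granulocytes, red cells, platelets and B cells are made. Vessels, nerves, connective tissue and the lining of the gum lie next to it. Loading is known to act on bone through osteocytes and through stretch-sensitive signalling, and metal surfaces are known to meet neutrophils and macrophages first.

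The 3 libraries of loaded Nb3 alloy stood apart from all others, and this precedes every result below. Pearson correlations across the tested genes were 0.768 to 0.866 between the loaded groups, 0.9004 to 0.937 within loaded Nb3 alloy and 0.936 to 0.964 within loaded cpTi. The loaded cpTi libraries correlated with the non-loaded libraries at 0.932 to 0.966. Reads on genes were 16823740, 22308428 and 17155283 in loaded Nb3 alloy and 14073105, 14580879 and 15915857 in loaded cpTi, in replicates 1, 2 and 3. Mitochondrial genes took 11.97%, 24.3% and 11.3% of the reads of loaded Nb3 alloy and 4.37% to 4.67% of those of loaded cpTi. Replicate 2 of loaded Nb3 alloy therefore differed most in depth and in mitochondrial share, and many results are also given without it. A result given only with it can still depend on it. As a check of the tissue label, the osteoblast markers Bglap, Ibsp, Col1a1 and Sp7 were all detected and summed to 13774, 5802 and 15755 FPKM beside the alloy and to 8634 to 9835 FPKM beside titanium. Replicate 2 of the alloy thus lay under every titanium library, and skeletal muscle markers, given further on, were high in replicates 1 and 2 of the alloy. Whether the tissue sampled differed between the groups was not tested. Values per library are listed below in the order of replicates 1, 2 and 3.

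Blood-forming genes were lower beside the loaded alloy, while genes of inflammation, connective tissue matrix, vessels and nerve were higher, and the genes that define bone cells mostly did not pass the test. A gene was called at an adjusted p under 0.05 (limma, Benjamini-Hochberg over all tested genes). Of the 15268 genes, 5123 (33.6%) were called, 2239 (14.7%) higher beside the alloy and 2884 (18.9%) lower. The counts of called genes in every list below are to be read beside these shares of all genes. With an absolute log2 difference of at least 1 as well, 884 genes (5.79%) were higher and 1391 (9.11%) lower. The 2 groups of 3 libraries did not overlap for 7109 genes (46.6%). Among the 5123 called genes 5018 did not overlap, so a lack of overlap in a called gene adds little to its call. Without replicate 2 of loaded Nb3 alloy 4838 genes (31.7%) were called, 2038 (13.3%) higher and 2800 (18.3%) lower, and 4174 of the called genes were called in the same direction in both fits. The direction of small differences depended on the scaling. With scaling to total reads the median of all genes was -0.15 on the log2 scale, with 1359 genes higher and 3671 lower, whereas quantile normalization gave a median of 0.07, with 2727 higher and 2456 lower.

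**Figure D1:**
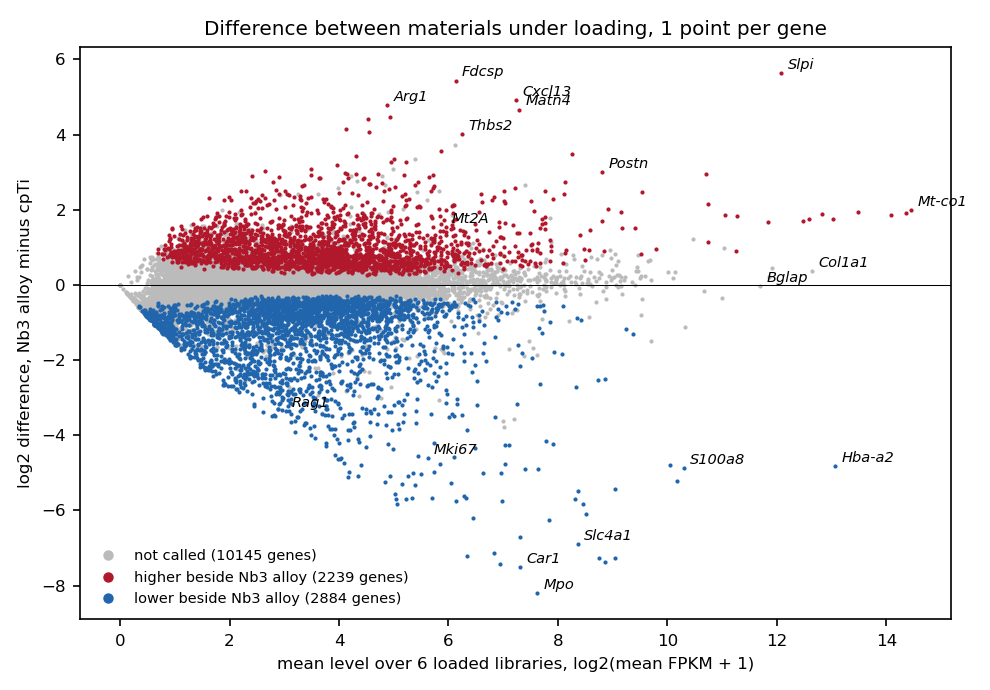
Each point is 1 of the 15268 tested genes: the horizontal axis gives the mean level over the 6 loaded libraries as log2(mean FPKM + 1), the vertical axis the log2 difference, Nb3 alloy minus cpTi. Red points are the 2239 genes called higher and blue points the 2884 called lower, and the lower genes reach -8.20 (Mpo) while the higher ones reach 5.64 (Slpi).

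The genes with the largest deficits beside the alloy were those of neutrophil precursors and red cell precursors. Mpo encodes myeloperoxidase, the main enzyme of the first neutrophil granules (ENSRNOG00000008310, chromosome 10, 72594661 to 72604819). It measured 0.249, 0.523 and 0.213 FPKM in the 3 alloy libraries and 367, 477 and 332 FPKM in the 3 titanium libraries. That is a 1194-fold lower mean and a log2 difference of -8.20 (SE 0.27, adjusted p = 3.08e-08). All alloy libraries were close to 0 and all titanium libraries far above them, with no overlap. Elane, encoding neutrophil elastase, measured 0.268, 0.367 and 0.574 FPKM against 252, 276 and 199.7 FPKM (log2 difference -7.43, SE 0.28). Ctsg, encoding cathepsin G, measured 0.405, 1.33 and 0.270 FPKM against 251, 232 and 194 FPKM (-7.13, SE 0.34). Both enzymes are serine proteases of the same granules, and neither gene reached 2 FPKM in any alloy library. Car1, the carbonic anhydrase of red cells, measured 0.816, 1.63 and 0 FPKM against 419, 244 and 284 FPKM (-7.52, SE 0.35, adjusted p = 3.34e-07). The anion exchanger gene of the red cell membrane, Slc4a1, measured 6.37, 8.05 and 1.13 FPKM against 822, 398 and 738 FPKM (-6.90, SE 0.51). Among the alloy libraries replicate 3 was lowest for both, and the groups did not overlap. Prg2, the major basic protein of eosinophil granules, measured 23.0, 20.9 and 1.03 FPKM against 831, 529 and 769.5 FPKM (-6.09, SE 0.80). The call of each gene in this paragraph held when any 1 of the 6 loaded libraries was left out.

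The genes with the largest excess beside the alloy encoded secreted defence proteins, chemokines and matrix proteins. Slpi, a secreted inhibitor of leukocyte proteases (ENSRNOG00000046699, chromosome 3, 153082369 to 153084453), measured 10886, 6006 and 8171 FPKM in the alloy libraries and 43.9, 129 and 741 FPKM in the titanium libraries. Its mean was 27.4-fold higher, with a log2 difference of 5.64 (SE 0.94, adjusted p = 0.00126). All 3 alloy libraries lay far above every titanium library, although the titanium libraries themselves were widely spread. Cxcl13, the chemokine that draws B cells, measured 418, 407 and 48.4 FPKM against 1.58, 11.2 and 8.63 FPKM (log2 difference 4.92, SE 0.89). Arg1, encoding arginase of alternatively activated macrophages, measured 16.2, 128 and 24.7 FPKM against 0.807, 0.164 and 0.278 FPKM (4.79, SE 0.57). Acod1, whose enzyme makes itaconate in stimulated macrophages, measured 11.7, 105 and 15.2 FPKM against 0.101, 0.379 and 0.507 FPKM (4.41, SE 0.62). For Arg1 and Acod1 replicate 2 was by far the highest alloy library, and the other alloy libraries still lay above all of titanium. Thbs2, encoding the matricellular protein thrombospondin 2, measured 119, 229 and 72.5 FPKM against 1.25, 9.07 and 20.4 FPKM (4.01, SE 0.82). Matn4, a matrix protein of the matrilin family, measured 435, 191 and 257 FPKM against 1.89, 10.8 and 37.9 FPKM (4.67, SE 1.22). Its call was lost without replicate 1 of loaded cpTi, where the difference was 3.70. Fdcsp, a small secreted protein of the junctional epithelium and follicular dendritic cells, measured 1.8, 325 and 88.0 FPKM in the alloy libraries and was listed at 0 in all 3 titanium libraries. Against a limit of 3 reads over the titanium group its mean was at least 728-fold higher. The alloy libraries of Fdcsp differed widely among themselves, and the limma-voom test on whole reads did not call it (adjusted p = 0.263), nor did the fit of only the 2 groups compared.

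**Figure D2:**
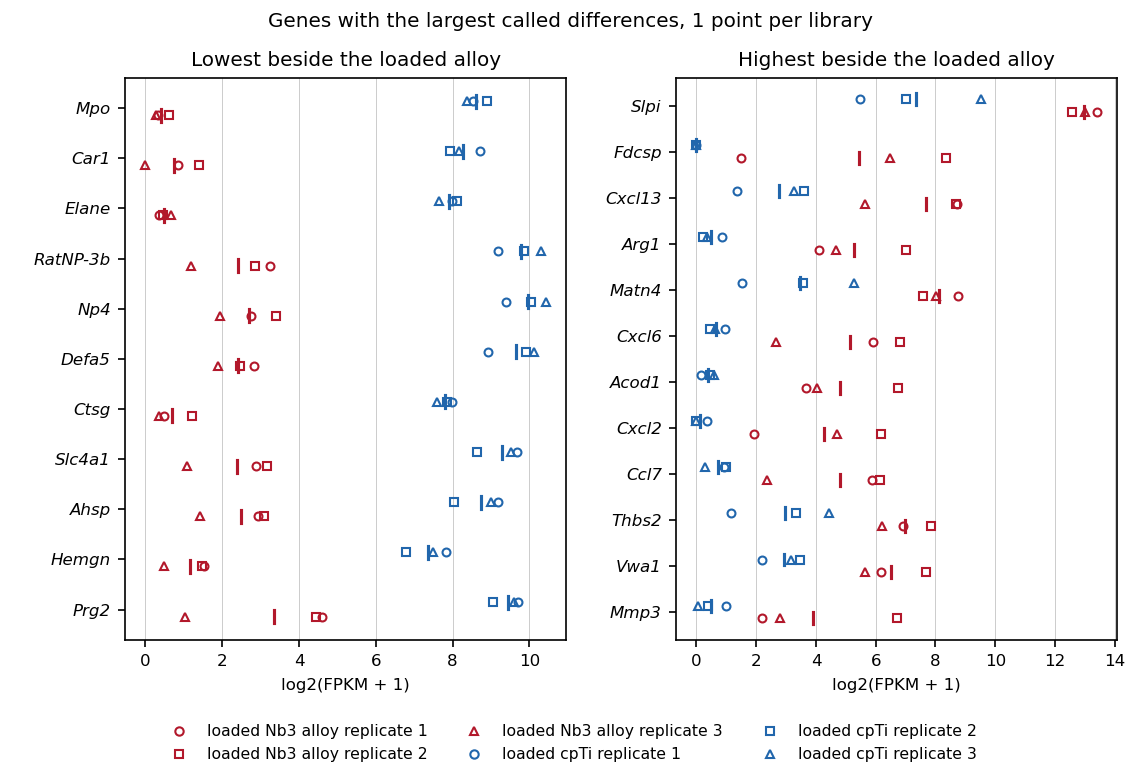
Level of 11 genes called lower (left) and 12 called higher (right) among those with the largest log2 differences, as log2(FPKM + 1) with 1 point per library: red for loaded Nb3 alloy, blue for loaded cpTi, circles, squares and triangles for replicates 1, 2 and 3, and a short vertical bar for each group mean. The genes were chosen among those whose groups do not overlap. Of the lower genes Mpo and Elane have red points close together, while those of Prg2 and Slc4a1 are widely spread, and among the higher genes replicate 2 of the alloy is often the outermost point.

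Neutrophil genes were lower from the earliest granule to the latest. Of 15 tested genes of primary granules and neutrophil precursors, 12 were lower and 1 was higher, with a median log2 difference of -4.35, beside a median of -0.01 over all genes. The precursor markers Mpo, Elane, Prtn3 and Ctsg together summed to 1.26 to 2.30 FPKM beside the alloy and 782 to 1063 FPKM beside titanium. Myb, a transcription factor of immature blood cells, measured 0.474, 0.351 and 0.544 FPKM against 14.1, 12.8 and 18.0 FPKM (-3.44, SE 0.15). The gene that was higher was Clec11a, a growth factor also made by bone stroma, with 239, 169 and 207 FPKM against 97.6, 140.0 and 113 FPKM (0.80, SE 0.24). Its call was lost without replicate 1 or 3 of either group, at differences of 0.68 to 0.79, and under total-read scaling or quantile normalization (0.63 and 0.72). Of 6 tested alpha defensins, the peptides packed into the same granules, 5 were lower. Np4 measured 5.72, 9.58 and 2.82 FPKM against 673, 1063 and 1387 FPKM (-7.27, SE 0.40), and Defa5 measured 6.10, 4.55 and 2.73 FPKM against 488, 971 and 1122 FPKM (-7.26, SE 0.35). Defensin genes are near copies of each other, so the reads of a single member are uncertain.

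Genes of secondary granules and of mature neutrophils were lower by less. Of 23 tested, 13 were lower and 0 higher (median -2.19), and without replicate 2 of loaded Nb3 alloy 20 were lower (median -2.68). Camp, encoding cathelicidin, measured 13.7, 28.2 and 2.86 FPKM against 576, 541 and 736 FPKM (-5.70, SE 0.63). Ngp, encoding neutrophilic granule protein, measured 26.8, 20.2 and 3.94 FPKM against 629.7, 732 and 564 FPKM (-5.48, SE 0.57). Mmp8, the neutrophil collagenase, measured 17.2, 10.9 and 0.877 FPKM against 284, 205 and 225 FPKM (-5.00, SE 0.71). Replicate 3 of the alloy was the lowest library for all 3 genes, and no alloy library reached a titanium library. S100a8, a calcium-binding alarmin that neutrophils carry in large amounts, was among the most abundant of the genes that were lower, with 110.0, 165 and 28.1 FPKM against 2464, 2019 and 2768 FPKM (-4.88, SE 0.60). Cxcr2, Mmp8, Ltf and Csf3r, the 4 markers of mature neutrophils, summed to 9.29 to 62.2 FPKM beside the alloy. Beside titanium, where Ltf was listed at 0, they summed to 256 to 347 FPKM. Mmp8 alone made up 284, 205 and 225 FPKM of the titanium sums of 347, 256 and 279 FPKM. In replicate 2 of the alloy it was 10.9 of 62.2 FPKM. The separation of the sums therefore rested on Mmp8 and not on the other markers together. In bulk tissue, fewer cells of a type and less RNA of these genes per cell cannot be told apart, here and in every result that follows.

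All 27 tested erythroid genes were lower beside the alloy, with a median log2 difference of -5.08. Left-out libraries gave 26 or 27. Gata1, the master transcription factor of the lineage, measured 0.455, 0.683 and 0.155 FPKM against 54.7, 26.2 and 38.6 FPKM (-4.79, SE 0.25, adjusted p = 5.22e-07). Klf1, which acts beside it, measured 0.977, 1.76 and 0.360 FPKM against 126, 74.2 and 103 FPKM (-5.68, SE 0.27). Rhag, a subunit of the Rh complex of the red cell membrane, measured 0.567, 0.673 and 0.243 FPKM against 103, 51.1 and 79.4 FPKM (-5.67, SE 0.22). No alloy library reached 2 FPKM for any of these genes, and no titanium library came near that level. Hba-a2, a globin chain, had the highest mean level of all genes that were lower. It measured 336, 2242 and 208 FPKM against 21694, 9668 and 17101 FPKM (-4.82, SE 0.72), and Hbb-b1, of the beta chain, measured 31.3, 231 and 21.7 FPKM against 2766, 1110 and 2782 FPKM (-5.21, SE 0.71). Replicate 2 was the highest alloy library for both globins, and globin genes too have near copies that can share reads.

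Genes of heme synthesis were lower, while most iron genes were not called. Of 8 tested enzymes of heme synthesis, 7 were lower and 0 higher (median -2.82). Fech, which inserts iron into heme, measured 9.10, 9.18 and 8.57 FPKM against 194, 90.2 and 168 FPKM (-3.86, SE 0.26). The alloy libraries lay close together for this enzyme and far under titanium. Of 16 tested iron genes, 5 were lower and 2 higher (median -0.34), beside 18.9% and 14.7% of all genes. Tfrc, the transferrin receptor, measured 43.6, 27.0 and 26.8 FPKM against 163, 108 and 167 FPKM (-2.14, SE 0.25). Tf, encoding transferrin itself, measured 56.1, 60.8 and 48.7 FPKM against 363, 341 and 343 FPKM (-2.64, SE 0.32). The 2 iron genes that were higher were Cp and Steap4, and neither call held under total-read scaling or without replicate 1 or 3 of loaded cpTi. The call of Steap4 was also lost without replicate 1 of the alloy (0.45), which left 1 higher gene, and without replicate 3 of the alloy 4 were higher.

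Cell division genes were lower as a block and varied little between replicates. Of 33 tested genes of mitosis and the spindle, 33 were lower (median -2.70), and the count was 33 whichever loaded library was left out. Mki67, the proliferation antigen Ki-67, measured 2.50, 3.60 and 2.31 FPKM against 114, 68.6 and 97.9 FPKM (-4.62, SE 0.21, adjusted p = 3.19e-07). Top2a, the topoisomerase that untangles chromosomes, measured 3.91, 3.48 and 2.88 FPKM against 75.1, 47.9 and 66.2 FPKM (-3.84, SE 0.19). Plk1, the kinase that drives entry into mitosis, measured 2.02, 1.99 and 1.29 FPKM against 41.1, 28.1 and 34.6 FPKM (-3.68, SE 0.18). All alloy libraries lay under 4 FPKM for these genes, and replicate 2 of titanium was the lowest titanium library for each of them. Of 35 tested genes of DNA replication, 34 were lower and 1 was higher (median -2.23). Rrm2, a subunit of ribonucleotide reductase, measured 2.36, 3.34 and 2.20 FPKM against 58.1, 34.2 and 48.9 FPKM (-3.71, SE 0.22), and Cdc6, which licenses replication origins, measured 0.771, 0.601 and 0.777 FPKM against 19.7, 14.0 and 16.7 FPKM (-3.36, SE 0.19). The gene that was higher was Cdc45, a subunit of the replicative helicase, with 20.3, 15.8 and 24.7 FPKM against 7.6, 12.9 and 9.96 FPKM (0.94, SE 0.25). The call of Cdc45 was lost without replicate 1 of loaded cpTi and under total-read scaling, where its difference was 0.77 in each.

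Promoters of 3 mitosis genes are shown because the members of that list moved together and most carry the same short elements. Of the 33 tested mitosis genes, 29 had a RefSeq promoter of 300 bases (build GRCr8, 250 bases before to 50 after the start). The letters TTTGAA, known as the CHR element of cell cycle genes, stood on either strand in 21 of the 29 (72.4%), against 18.1% of all 27457 promoters. They stood in 2 of 27 promoters of the replication list (7.41%). The letters CCAAT stood on either strand in 75.9% of the mitosis promoters and 66.7% of the replication promoters, against 37.7% of all. A match is a description of the letters, not a site or a cause. The sequences below run 5′ to 3′ from 250 bases before the start to 20 after it, with matches of both motifs on either strand in capitals; in Mki67 a match of each overlaps. Plk1 lies at chr1:186147408-186147677 on the plus strand and holds 2 matches, Mki67 at chr1:199952574-199952843 on the minus strand with 6, and Top2a at chr10:84473074-84473343 on the minus strand with 5.
Plk1: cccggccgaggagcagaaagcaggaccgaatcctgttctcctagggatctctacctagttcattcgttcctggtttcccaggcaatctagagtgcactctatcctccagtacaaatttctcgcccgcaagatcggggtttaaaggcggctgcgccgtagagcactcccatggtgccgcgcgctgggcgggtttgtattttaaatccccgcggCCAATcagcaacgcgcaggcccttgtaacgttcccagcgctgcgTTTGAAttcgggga
Mki67: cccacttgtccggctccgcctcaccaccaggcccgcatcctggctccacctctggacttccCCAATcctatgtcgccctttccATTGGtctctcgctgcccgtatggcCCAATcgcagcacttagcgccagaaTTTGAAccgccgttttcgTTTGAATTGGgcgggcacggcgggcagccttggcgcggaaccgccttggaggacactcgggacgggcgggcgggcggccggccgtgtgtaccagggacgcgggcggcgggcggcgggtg
Top2a: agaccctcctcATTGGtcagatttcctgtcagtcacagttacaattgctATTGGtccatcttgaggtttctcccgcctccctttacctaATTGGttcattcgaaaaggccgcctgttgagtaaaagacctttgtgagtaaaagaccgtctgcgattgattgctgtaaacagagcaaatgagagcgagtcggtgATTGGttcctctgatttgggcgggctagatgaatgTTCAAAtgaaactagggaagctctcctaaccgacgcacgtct

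Platelet, B lineage and mast cell genes were also lower. Of 17 tested platelet and megakaryocyte genes, 13 were lower and 0 higher (median -2.78). Gfi1b, a repressor needed for platelets and red cells, measured 0.170, 0.186 and 0 FPKM against 38.6, 29.1 and 35.5 FPKM (-4.98, SE 0.16, adjusted p = 3.08e-08). Itga2b, the platelet integrin chain, measured 1.74, 3.40 and 0.946 FPKM against 25.9, 19.2 and 21.7 FPKM (-3.01, SE 0.28). Neither gene overlapped between the groups. Of 22 tested B lineage genes, 21 were lower and 0 higher (median -1.87). Rag1, the recombinase that assembles antibody genes in B cell precursors, measured 0.451, 0.543 and 0.197 FPKM against 11.8, 9.92 and 19.9 FPKM (-3.36, SE 0.25). Pax5, the factor that sets B cell identity, measured 1.04, 2.33 and 0.209 FPKM against 15.4, 12.8 and 23.8 FPKM (-3.14, SE 0.34). Of 14 tested mast cell genes 13 were lower and 0 higher (median -2.48), with the protease gene Mcpt9 at 4.75, 1.26 and 2.38 FPKM against 95.8, 79.0 and 71.7 FPKM (-4.55, SE 0.28). Plasma cell genes went in both directions. Of 11 tested, 4 were lower and 1 (Sdc1) was higher. The markers Jchain, a chain of secreted antibodies, and Mzb1 summed to 680, 400.0 and 288 FPKM beside the alloy and 726 to 1184 FPKM beside titanium, lower with no overlap. Jchain was called lower (-1.17, SE 0.33) and Mzb1 was not called (0.05). The call of Jchain was lost without replicate 3 of the alloy (-0.93) or replicate 1 of loaded cpTi (-0.94). The median of the list was 0.05, and its sign changed under total-read scaling (-0.12), under quantile normalization (-0.003020) and without replicate 1 of loaded Nb3 alloy (-0.52), among others. Without replicate 1 of loaded cpTi 2 plasma cell genes were lower, and without replicate 3 of loaded Nb3 alloy 3 were higher.

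Called genes of blood stem cells were mostly lower, and the few called genes of the marrow stroma went in both directions. Of 17 tested stem cell and progenitor genes, 8 were lower and 2 higher (median -0.68), beside 18.9% and 14.7% of all genes. Tal1, a factor of early blood and red cells, measured 3.55, 3.74 and 3.87 FPKM against 80.0, 44.5 and 60.1 FPKM (-3.69, SE 0.18), whereas Cd34, which vessels and fibroblasts also carry, measured 38.7, 96.1 and 43.9 FPKM against 7.29, 11.7 and 10.9 FPKM (2.37, SE 0.33). Of 15 tested niche genes, 3 were lower and 3 (Pdgfra, Nes and Ptn) higher, which is near the same shares of all genes. Without replicate 1 of loaded cpTi 0 were higher and 1 was lower, and without its replicate 3 or under total-read scaling also 0 were higher. The niche median of 0.03 changed sign under total-read scaling (-0.14) and quantile normalization (-0.10). It also did so without replicate 1 or 3 of the alloy or replicate 2 or 3 of loaded cpTi. Cxcl12, the chemokine that holds blood stem cells in the marrow, measured 103, 89.1 and 133 FPKM against 476, 281 and 373 FPKM (-1.77, SE 0.28). The receptor Lepr, a marker of marrow stroma, measured 12.4, 1.52 and 19.6 FPKM against 53.3, 42.3 and 38.0 FPKM (-2.35, SE 0.62), and its call was lost without replicate 1 of loaded cpTi (-2.21). Replicate 2 of the alloy was much the lowest library for Lepr, and all alloy libraries lay under all titanium libraries for both genes. Stab2, a scavenger receptor of sinus endothelium, measured 0.114, 0 and 0.151 FPKM against 8.93, 4.48 and 5.48 FPKM (-2.70, SE 0.25). The adipocyte markers Adipoq and Plin1, which fatty marrow carries, summed to 0 to 6.46 FPKM beside the alloy and 0.0300 to 78.2 FPKM beside titanium.

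Most monocyte and macrophage genes were not called, and the called ones went in both directions. Of 26 tested, 6 were higher and 3 lower, beside 14.7% and 18.9% of all genes. Without replicate 3 of loaded cpTi 3 were higher. The median of the list, 0.05, changed sign under total-read scaling (-0.13) and quantile normalization (-0.02). The marker sum of Csf1r, Cd68 and Adgre1 was 176 to 264 FPKM beside the alloy and 159 to 194 FPKM beside titanium, so the groups overlapped. Trem2, a lipid receptor of tissue macrophages, measured 24.2, 29.6 and 15.7 FPKM against 9.27, 6.22 and 6.26 FPKM (1.53, SE 0.26). Apoe, a lipid carrier made by macrophages and other cells, measured 2492, 5213 and 1238 FPKM against 244, 340.3 and 421 FPKM (2.94, SE 0.48). Cd163, the hemoglobin scavenger receptor, measured 4.87, 3.63 and 7.81 FPKM against 40.3, 23.0 and 29.9 FPKM (-2.34, SE 0.46), and Spic, a factor of iron-recycling macrophages, measured 2.27, 1.48 and 3.13 FPKM against 11.7, 5.78 and 12.1 FPKM (-1.69, SE 0.39). Trem2 and Apoe thus lay wholly above titanium and Cd163 and Spic wholly below it. Of 17 tested genes of macrophage activation, 11 were higher and 2 (Irf4 and Chi3l1) lower (median 1.17). The lower count was 1 without replicate 1 of either group and 0 without replicate 3 of loaded cpTi, and the call of Chi3l1 was lost without any 1 of 5 loaded libraries. Socs3, a brake on cytokine signalling, measured 87.4, 113 and 27.3 FPKM against 6.84, 11.0 and 9.08 FPKM (2.75, SE 0.40).

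Chemokines and interleukins were higher. Of 29 tested cytokine genes, 18 were higher and 2 lower (median 1.56), and 15 to 20 were higher when 1 loaded library was left out. Cxcl1, which draws neutrophils, measured 10.7, 17.8 and 7.87 FPKM against 0.570, 0.432 and 1.19 FPKM (2.88, SE 0.44). Cxcl6, of the same kind, measured 59.1, 112 and 5.33 FPKM against 0.920, 0.362 and 0.524 FPKM (4.47, SE 0.79). The limma-voom test on whole reads called 11 genes of the list higher, and not Cxcl6, Cxcl2 or Ccl7 (adjusted p = 0.0786, 0.0974 and 0.0854). Ccl2, which draws monocytes, measured 45.5, 38.7 and 9.50 FPKM against 2.55, 3.87 and 1.98 FPKM (2.85, SE 0.49). For Cxcl6 and Ccl2 replicate 3 was the lowest alloy library and still exceeded every titanium library. Il1b, the inflammatory cytokine interleukin 1 beta, measured 36.7, 206 and 41.7 FPKM against 7.69, 6.73 and 10.5 FPKM (2.92, SE 0.53), with a difference of 2.13 without replicate 2. The genes that were lower were Cxcl12, described above, and Il24, whose call was lost without any 1 of 5 loaded libraries. The median over the list was 1.34, 2.81 and 0.65 in alloy replicates 1, 2 and 3, measured against the mean of titanium, so replicate 2 stood highest.

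Called genes of innate sensing, endothelial adhesion and NF-kappaB were mostly higher. Of 28 tested in this list, 11 were higher and 3 (Vcam1, Tlr5 and Tlr9) lower, beside 14.7% and 18.9% of all genes. The median was 0.31, or 0.07 without replicate 2 of the alloy. The call of Tlr5 was lost without replicate 1 or 3 of the alloy or replicate 1 of loaded cpTi. Left-out libraries gave 5 to 12 higher, with 5 without replicate 1 of loaded cpTi and 7 without its replicate 2. The lower count was 1 without replicate 1 of either group. Sele, encoding E-selectin, on which leukocytes roll along vessels, measured 19.7, 30.1 and 8.28 FPKM against 1.19, 1.29 and 0.912 FPKM (3.09, SE 0.35, adjusted p = 9.75e-05). Vcam1, another adhesion molecule of vessels and stroma, was lower, with 29.0, 26.7 and 41.9 FPKM against 93.8, 59.8 and 62.6 FPKM (-1.12, SE 0.33), and its call was lost without replicate 1 or 2 of the alloy or replicate 1 of loaded cpTi. Nfkbia, the inhibitor that NF-kappaB itself induces, measured 59.2, 141 and 72.8 FPKM against 31.0, 29.2 and 33.1 FPKM (1.42, SE 0.26). Tlr9, a DNA sensor of B cells and other immune cells, measured 1.66, 2.29 and 1.64 FPKM against 4.10, 4.86 and 5.05 FPKM (-0.99, SE 0.15). Of 20 tested complement genes, 7 were higher and 2 lower (median 0.47, or 0.22 without replicate 2 of the alloy). C1s, a protease of the classical pathway, measured 223, 334 and 103 FPKM against 17.5, 52.3 and 43.3 FPKM (2.49, SE 0.46), and Cfp, encoding properdin, which neutrophils store, measured 24.2, 26.1 and 11.7 FPKM against 106, 74.9 and 97.8 FPKM (-2.18, SE 0.31).

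Lymphocyte, antigen presentation and interferon genes mostly did not pass the test. Their counts stand beside 14.7% higher and 18.9% lower among all genes. Of 22 tested T and NK cell genes 3 were higher and 1 (Cd6) lower, and without replicate 3 of loaded Nb3 alloy 8 were higher. The call of Cd6 was lost without any 1 of 5 loaded libraries. Cd2, a T cell adhesion receptor, measured 25.8, 16.3 and 31.0 FPKM against 3.59, 7.36 and 7.10 FPKM (1.86, SE 0.45). The defining markers Cd3e, Cd3d and Lck summed to 4.94 to 11.6 FPKM beside the alloy and 5.65 to 8.49 FPKM beside titanium. Of 19 tested antigen presentation genes 2 were higher and 0 lower. Their median was 0.37 and became -0.05 without replicate 2 of loaded Nb3 alloy. The higher count was 10 without replicate 3 of loaded Nb3 alloy, and 0 or 1 without any other loaded library. Of 22 tested interferon-stimulated genes 2 were higher and 2 lower, and without replicate 3 of loaded Nb3 alloy 6 were higher. Under total-read scaling 1 was higher and 4 were lower. The lower pair was Rsad2, encoding viperin, and its chromosomal neighbour Cmpk2. Rsad2 measured 4.22, 13.6 and 1.15 FPKM against 222, 95.9 and 249 FPKM (-5.00, SE 0.59, adjusted p = 0.000125), and Cmpk2 measured 3.03, 7.15 and 2.49 FPKM against 24.3, 11.2 and 21.6 FPKM (-1.98, SE 0.35). Both calls held without any 1 loaded library, while the calls of the 2 genes that were higher, Ifi27 and Ifi44, were lost without replicate 2 of the alloy (0.59 and 0.53).

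Called genes of the gum lining went in both directions. Of 17 tested genes of junctional and oral epithelium, 6 were higher and 2 lower (median 0.45), beside 14.7% and 18.9% of all genes. Slpi and Fdcsp, described above, belong to this list. The lower count was 1 without replicate 1 or 3 of the alloy or replicate 2 or 3 of loaded cpTi. Krt5, Cdh1, Epcam and Odam, the 4 of 5 defining markers found in the table, summed to 3.54, 76.4 and 9.99 FPKM in the alloy libraries and 12.2 to 21.3 FPKM in the titanium libraries. Replicate 2 of the alloy was thus the highest of the 6 libraries and replicate 1 the lowest. Cdh1, encoding E-cadherin, which red cell precursors also carry, measured 1.85, 3.85 and 3.03 FPKM against 16.6, 12.9 and 11.9 FPKM (-1.94, SE 0.22). It gave most of each titanium sum, with 16.6 of 21.3 FPKM in replicate 1, but 3.85 of 76.4 FPKM in replicate 2 of the alloy. The low places of alloy replicates 1 and 3 in the sum therefore rested on Cdh1. Pkp1, a desmosome protein, measured 1.67, 6.22 and 2.48 FPKM against 0.655, 0.661 and 0.510 FPKM (1.34, SE 0.33). Without replicate 2 or 3 of the alloy, or replicate 1 or 3 of loaded cpTi, 3 genes were higher. The part of this cell type in the level of Slpi was not tested.

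Collagens of soft connective tissue and basement membranes were higher. Of 24 tested collagen genes, 14 were higher and 0 lower (median 1.31), and each left-out library gave 10 to 13. Col3a1, of soft connective tissue, measured 877, 1778 and 1050 FPKM against 91.0, 385 and 262 FPKM (2.49, SE 0.53). Col4a1, of basement membranes, measured 112, 339 and 110.0 FPKM against 27.6, 33.0 and 38.6 FPKM (2.26, SE 0.44), and Col12a1, of ligament and tendon, measured 78.3, 117 and 98.6 FPKM against 16.6, 49.4 and 37.0 FPKM (1.60, SE 0.37). The groups did not overlap for any of these genes, and replicate 2 was the highest alloy library for each. Of 25 tested genes that modify or crosslink collagen, 14 were higher and 0 lower (median 0.71). That count fell to 7 without replicate 1 of loaded Nb3 alloy, 6 without replicate 1 of loaded cpTi or under total-read scaling, and 9 without replicate 3 of loaded cpTi. Plod1, a lysyl hydroxylase, measured 17.3, 28.9 and 18.2 FPKM against 6.98, 9.92 and 8.29 FPKM (1.23, SE 0.20), and Loxl1, a crosslinking oxidase, measured 82.9, 67.9 and 64.3 FPKM against 23.1, 31.5 and 36.7 FPKM (1.22, SE 0.23).

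Proteoglycans, elastic fibres and matricellular proteins followed the collagens. Of 9 tested small leucine-rich proteoglycans, which space collagen fibrils, 6 were higher and 0 lower (median 1.34). Fmod, encoding fibromodulin, measured 63.4, 71.3 and 36.9 FPKM against 2.16, 6.4 and 6.11 FPKM (3.35, SE 0.36, adjusted p = 6.43e-05), and Lum, encoding lumican, measured 648, 499.8 and 527 FPKM against 147, 255 and 211 FPKM (1.47, SE 0.27). Of 16 tested elastic fibre genes 10 were higher and 0 lower (median 1.16), among them Eln, encoding elastin, with 24.7, 19.8 and 22.7 FPKM against 2.31, 5.61 and 6.22 FPKM (2.11, SE 0.28). The alloy libraries lay close together for Lum and Eln, and each lay above every titanium library. Of 22 tested matricellular genes, 13 were higher and 0 lower (median 1.16), and 7 were higher without replicate 1 of loaded cpTi and 8 under total-read scaling. Postn, encoding periostin of the periodontal ligament and periosteum, measured 826, 1034 and 494 FPKM against 33.8, 149.8 and 155 FPKM (3.01, SE 0.55), with titanium replicate 1 far under its partners. Ccn2, a growth factor of connective tissue that YAP controls, measured 92.0, 75.7 and 156 FPKM against 24.8, 27.2 and 18.2 FPKM (2.11, SE 0.29). Of 25 tested proteases and inhibitors of the matrix, 14 were higher and 1 lower (median 1.06). Mmp2, a gelatinase of fibroblasts, measured 412, 684 and 288 FPKM against 46.7, 116 and 96.5 FPKM (2.41, SE 0.46), and Timp1, an inhibitor, measured 466, 395 and 335 FPKM against 88.2, 71.4 and 84.1 FPKM (2.27, SE 0.42). The gene that was lower was Mmp8 of neutrophils.

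Genes of vessels, nerve sheath and ligament were higher. Of 22 tested endothelial genes, 17 were higher and 1, Stab2, was lower (median 1.40), and 15 to 17 were higher when 1 loaded library was left out. Pecam1, the junction protein CD31, measured 63.2, 130.2 and 86.1 FPKM against 24.4, 26.1 and 27.6 FPKM (1.74, SE 0.23, adjusted p = 0.000297), and Nos3, the endothelial nitric oxide synthase, measured 27.1, 35.7 and 15.8 FPKM against 2.82, 4.72 and 3.83 FPKM (2.45, SE 0.31). Of 19 tested genes of smooth muscle and pericytes 14 were higher and 0 lower (median 1.15), with Acta2, smooth muscle actin, at 148, 169 and 122 FPKM against 19.2, 55.8 and 46.0 FPKM (1.95, SE 0.36). No alloy library overlapped with titanium for these genes. Of 20 tested Schwann cell and nerve genes, 13 were higher and 0 lower (median 1.35), with 7 without replicate 2 of the alloy, 8 without its replicate 3 and 6 without replicate 1 of loaded cpTi. Sox10, the factor of Schwann cells, measured 5.86, 21.7 and 13.9 FPKM against 1.44, 4.40 and 3.49 FPKM (1.77, SE 0.43). Of 10 tested ligament and tendon genes, 5 were higher and 0 lower (median 1.30). Tnmd, encoding tenomodulin, measured 12.2, 14.5 and 11.3 FPKM against 0.953, 1.97 and 1.37 FPKM (2.50, SE 0.29), with no overlap. Of 18 tested fibroblast genes 10 were higher and 1 (Dlk1) lower (median 1.11). Without replicate 2 of the alloy 7 were higher (median 0.92). The call of Dlk1 was lost without replicate 2 of the alloy or replicate 3 of loaded cpTi.

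Skeletal muscle genes were spread between replicates. Of 11 tested genes 0 were called, although their median difference was 2.43, or 1.07 without replicate 2 of the alloy. The median of the list was 2.49, 5.15 and -0.35 in alloy replicates 1, 2 and 3, measured against the mean of titanium. The markers Acta1, Ckm, Myh4 and Mylpf summed to 141, 630 and 3.24 FPKM beside the alloy and to 7.47 to 30.2 FPKM beside titanium. Replicates 1 and 2 of the alloy were therefore high and replicate 3 was low, and without replicate 3 all 11 tested genes were higher. Replicate 2 was highest in these muscle markers and in the share of mitochondrial reads, and the part of either in the other results was not tested.

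**Figure D3:**
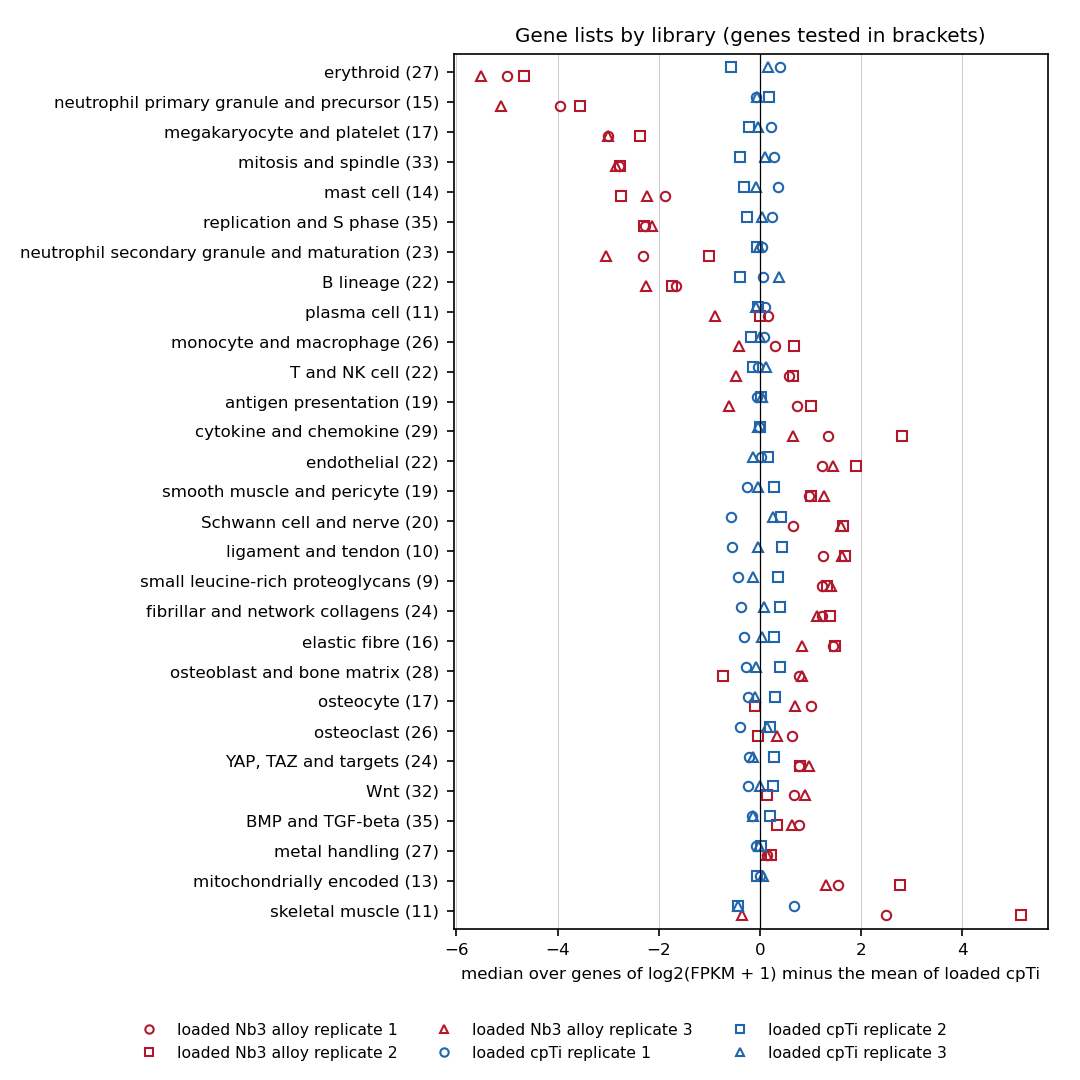
Each row is a gene list with its number of tested genes; each point is the median over those genes, in 1 library, of log2(FPKM + 1) minus the mean of loaded cpTi. Red points are the 3 loaded Nb3 alloy libraries and blue points the 3 loaded cpTi libraries, with circles, squares and triangles for replicates 1, 2 and 3. The first 8 lists, of blood formation and cell division, lie to the left for all 3 alloy libraries, matrix and vessel lists to the right, and in the osteoblast list replicate 2 lies left of 0 while replicates 1 and 3 lie right.

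Bone cell genes mostly did not differ beyond the spread, and replicate 2 of the alloy lay apart from its partners. Of 28 tested osteoblast and bone matrix genes, 6 were higher and 0 lower (median 0.38), beside 14.7% and 18.9% of all genes. Without replicate 2 of the alloy 11 were higher (median 0.79). Without replicate 3 of loaded Nb3 alloy, without replicate 1 or 3 of loaded cpTi, or under total-read scaling, 3 were higher. The members with the largest differences were Postn, described above, and Mgp, an inhibitor of mineralization, with 464, 751 and 246 FPKM against 41.8, 85.7 and 77.8 FPKM (2.74, SE 0.40). Bglap, encoding osteocalcin of mature osteoblasts, measured 5146, 898 and 4942 FPKM against 2133, 3739 and 3056 FPKM (-0.03, SE 0.60, adjusted p = 0.975), or 0.80 without replicate 2. Alpl, the alkaline phosphatase of mineralization, measured 499, 93.0 and 463 FPKM against 124, 287 and 176 FPKM (0.59, SE 0.55, adjusted p = 0.440). Without replicate 2 its difference was 1.38 and it was called (adjusted p = 0.00944). In both genes replicates 1 and 3 lay above all titanium libraries and replicate 2 below all of them. Col1a1, the main collagen of bone, measured 7887, 4714 and 9367 FPKM against 5816, 5284 and 5304 FPKM (0.37, SE 0.42, or -0.52 after quantile normalization). Runx2, the factor that commits cells to bone, measured 35.8, 16.5 and 40.9 FPKM against 19.2, 32.9 and 19.0 FPKM (0.33, SE 0.32), and neither gene was called. Spp1, encoding osteopontin, measured 2189, 1784 and 3155 FPKM against 798, 1403 and 995 FPKM (1.15, SE 0.39, adjusted p = 0.0424). It was called, and the call was lost without replicate 1 or 3 of either group, at 0.93 to 1.19.

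Osteocyte and osteoclast genes showed the same split. Of 17 tested osteocyte genes, 2 (Pdpn and Capg) were higher and 0 lower (median 0.53), beside 14.7% and 18.9% of all genes. Without replicate 2 of the alloy 4 were higher. Dmp1, a matrix protein of osteocytes, measured 645, 179.9 and 707 FPKM against 201, 333 and 266 FPKM (0.73, SE 0.51), or 1.37 without replicate 2 (adjusted p = 0.0218). Sost, encoding the Wnt inhibitor sclerostin, which loading is known to lower, measured 1044, 184 and 624 FPKM against 386, 809 and 315 FPKM (0.10, SE 0.74, adjusted p = 0.935, or -0.0798 under total-read scaling). The libraries of the groups were interleaved for Sost. Of 26 tested osteoclast genes, 3 were higher and 3 lower (median 0.34). Both counts were under the 14.7% higher and 18.9% lower of all genes. Without replicate 2 of the alloy 8 were higher and 2 lower. Without replicate 1 of either group 1 was higher, under total-read scaling 0 were, and without replicate 1 of the alloy 1 was lower. Ctsk, the collagen-cutting cathepsin K, measured 3062, 743 and 2227 FPKM against 381, 1041 and 1002 FPKM (1.22, SE 0.57, adjusted p = 0.119), or 1.83 without replicate 2 (adjusted p = 0.0198). Car2, the carbonic anhydrase that osteoclasts share with red cells, was lower, with 45.0, 13.0 and 16.9 FPKM against 527, 273 and 436 FPKM (-4.14, SE 0.39). Tcirg1, a subunit of the osteoclast proton pump, was higher, with 71.3, 57.8 and 63.2 FPKM against 28.7, 43.4 and 46.3 FPKM (0.71, SE 0.18), and its call was lost under total-read scaling (0.54). Of 13 tested genes of the RANKL system and of bone coupling 4 were higher and 0 lower, and 2 were higher without replicate 1 of either group or under total-read scaling. Tnfsf11, encoding RANKL, the signal for osteoclast formation, measured 13.3, 7.80 and 4.68 FPKM against 2.29, 2.67 and 4.77 FPKM (1.12, adjusted p = 0.0425). Its decoy Tnfrsf11b, encoding OPG, measured 12.4, 3.90 and 8.69 FPKM against 3.82, 5.72 and 3.74 FPKM (0.68, adjusted p = 0.255). The groups overlapped for both, and the call of Tnfsf11 was lost without replicate 2 of the alloy (adjusted p = 0.0742) and 3 other libraries.

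**Figure D4:**
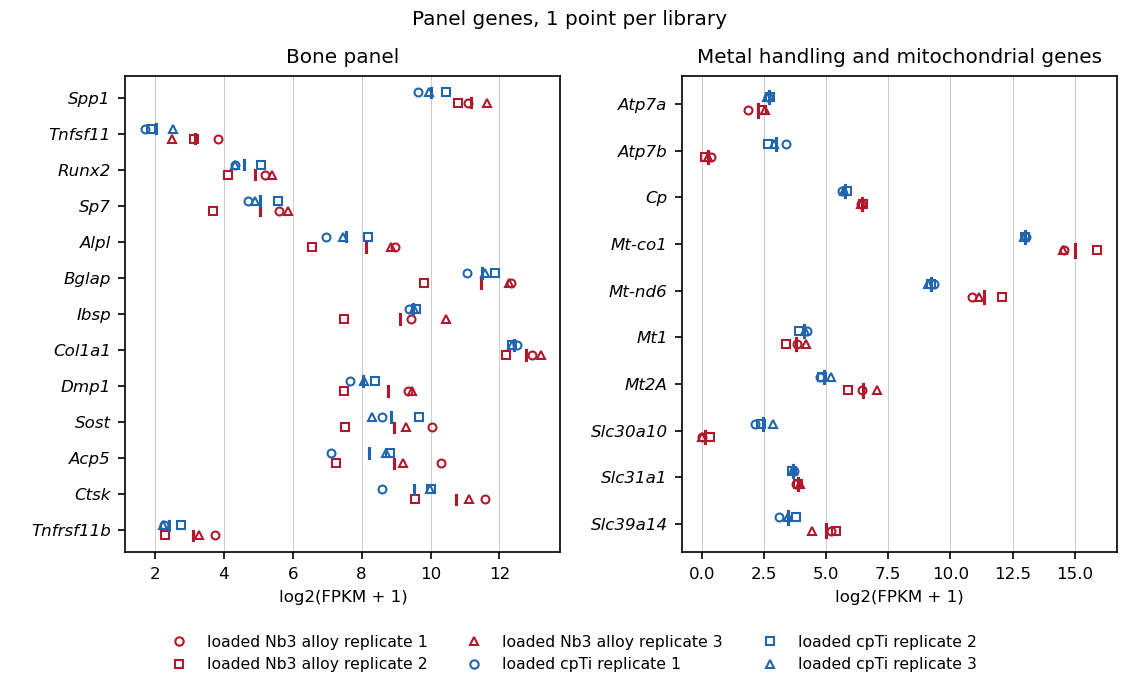
Level of 13 bone genes (left) and of metal handling and mitochondrial genes (right) as log2(FPKM + 1), with 1 point per library, red for loaded Nb3 alloy and blue for loaded cpTi, circles, squares and triangles for replicates 1, 2 and 3, and a short vertical bar for each group mean. Replicate 2 of the alloy is the lowest red point for most bone genes and the highest for Mt-co1; Mt2A and Mt-co1 separate the groups, and Bglap and Sost do not.

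Among signalling pathways that bone cells use, the called genes were mostly higher. Of 32 tested Wnt genes, 12 were higher and 2 lower (median 0.57), with 8 to 13 higher when 1 loaded library was left out. Wnt4, a ligand, measured 7.18, 8.32 and 7.26 FPKM against 2.22, 2.89 and 2.98 FPKM (1.22, SE 0.17, adjusted p = 0.000434), and Wnt5a, a ligand of the branch that does not use beta-catenin, measured 11.3, 7.6 and 6.16 FPKM against 1.8, 3.20 and 3.23 FPKM (1.31, SE 0.25). Lef1, a nuclear target that B cell precursors also express, was lower, with 1.32, 2.14 and 0.862 FPKM against 8.23, 4.16 and 6.46 FPKM (-1.57, SE 0.29). Of 35 tested BMP and TGF-beta genes, 12 were higher and 0 lower (median 0.57), and without replicate 1 or replicate 3 of loaded cpTi 6 were higher. Id1, a direct BMP target, measured 94.6, 101 and 149 FPKM against 44.8, 42.9 and 38.0 FPKM (1.41, SE 0.22), while Nog, encoding the BMP antagonist noggin, measured 8.97, 4.46 and 6.03 FPKM against 1.49, 1.90 and 2.20 FPKM (1.35, SE 0.33). The groups did not overlap for any gene named from either pathway, as for nearly all called genes. Of 15 tested IGF genes, 6 were higher and 1 lower (median 0.69). Igf2, a fetal growth factor, measured 69.1, 54.8 and 58.3 FPKM against 5.53, 11.3 and 17.9 FPKM (2.42, SE 0.34), and Igfbp7, a secreted binding protein of vessels, measured 669, 1057 and 606 FPKM against 175, 205 and 175 FPKM (2.03, SE 0.26). The gene that was lower was the receptor Igf1r (-0.87), and its call was lost without any 1 of the 6 loaded libraries.

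Genes that sense or answer mechanical load were also given as lists. Of 24 tested genes of YAP, TAZ and their targets, 13 were higher and 0 lower (median 0.83), with 10 to 14 higher when 1 loaded library was left out. Yap1 itself measured 25.6, 29.3 and 32.1 FPKM against 11.7, 17.1 and 13.1 FPKM (1.01, SE 0.24), and Wwtr1, encoding TAZ, measured 22.2, 35.7 and 23.2 FPKM against 9.30, 11.9 and 9.01 FPKM (1.32, SE 0.24). Of 26 tested genes of mechanosensing and load response 11 were higher and 1 lower (median 0.47), and 7 were higher without replicate 1 of loaded cpTi. Trpv4, a stretch-responsive channel, measured 8.40, 9.68 and 7.17 FPKM against 2.25, 4.28 and 2.98 FPKM (1.20, SE 0.26), and Cav1, of membrane caveolae, measured 68.6, 68.8 and 73.6 FPKM against 14.1, 22.6 and 12.8 FPKM (2.07, SE 0.25). All alloy libraries lay above titanium for these genes. The gene that was lower was Tln1, encoding talin, which platelets and leukocytes carry, with 46.0, 61.5 and 52.1 FPKM against 104, 95.1 and 98.3 FPKM (-0.90, SE 0.19). Of 21 tested immediate early genes 10 were higher and 2 lower (median 0.54). The higher count was 6 without replicate 2 of the alloy and 5 without replicate 1 or 3 of loaded cpTi or under total-read scaling, and 1 was lower without replicate 3 of loaded cpTi. Jun measured 22.6, 28.2 and 23.1 FPKM against 8.27, 13.7 and 9.03 FPKM (1.20, SE 0.22). Endothelial and stromal markers were higher in the same libraries, as given above, and their part in these lists was not tested.

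Because the alloy contains copper, aluminium and zirconium, metal handling genes were read as a panel. Of 27 tested, 6 were higher and 4 lower (median 0.19), beside 14.7% and 18.9% of all genes, and 3 were higher without replicate 1 or 3 of loaded cpTi or under total-read scaling. Mt2A encodes metallothionein 2A, a small protein that binds zinc and copper (ENSRNOG00000043098, chromosome 19, 10832002 to 10832784). It measured 86.8, 58.2 and 132 FPKM against 26.1, 27.4 and 35.5 FPKM, a 3.11-fold higher mean (1.54, SE 0.29, adjusted p = 0.00222), with no overlap. The entry AC128848.1 beside it on chromosome 19, which the table describes as metallothionein 1, measured 83.0, 51.8 and 133 FPKM against 78.3, 67.7 and 86.0 FPKM (0.11, SE 0.31, adjusted p = 0.816). It and Mt3 (log2 difference 0.39, adjusted p = 0.540) were chosen after their values were seen. The entry named Mt1 lies on chromosome 17 and measured 13.3, 9.31 and 17.0 FPKM against 17.5, 14.0 and 16.9 FPKM (-0.30, adjusted p = 0.4); metallothionein copies are alike in sequence, so their reads may be shared. Of the copper transporters, Slc31a1, which takes copper up, measured 12.8, 13.7 and 14.6 FPKM against 11.9, 11.3 and 11.7 FPKM (0.22, adjusted p = 0.216), and Atp7a, which exports it, measured 2.65, 4.31 and 4.78 FPKM against 5.38, 5.68 and 5.2 FPKM (-0.41, adjusted p = 0.191). Atp7b, the export pump known from liver, was lower, with 0.275, 0.0943 and 0.197 FPKM against 9.43, 5.24 and 6.45 FPKM (-2.73, SE 0.21). Slc39a14, an importer of zinc, iron and manganese that inflammation is known to induce, measured 35.1, 41.0 and 20.7 FPKM against 7.57, 13.0 and 9.89 FPKM (1.55, SE 0.25). Cp, encoding the copper oxidase ceruloplasmin, was called (0.69, SE 0.19, adjusted p = 0.0166), and the call was lost without replicate 1 or 3 of loaded cpTi (0.64 and 0.69).

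The promoters of Mt2A and of its RefSeq neighbour Mt1 are shown because the first was higher and the entry described as the second was not called. Metal response elements were searched as TGCACNC and TGCGCNC on both strands, and 1 or more match stood in 25.0% of all 27457 promoters of 300 bases, 4 or more in 0.455%. Within the stretch shown, from 250 bases before the start to 20 after it, Mt2A (chr19:10838689-10838958, GRCr8, minus strand) held 4 matches and Mt1 (chr19:10832956-10833225, GRCr8, minus strand) held 6, in capitals. Both promoters thus carry these letters, and a match is a description of the sequence only.
Mt2A: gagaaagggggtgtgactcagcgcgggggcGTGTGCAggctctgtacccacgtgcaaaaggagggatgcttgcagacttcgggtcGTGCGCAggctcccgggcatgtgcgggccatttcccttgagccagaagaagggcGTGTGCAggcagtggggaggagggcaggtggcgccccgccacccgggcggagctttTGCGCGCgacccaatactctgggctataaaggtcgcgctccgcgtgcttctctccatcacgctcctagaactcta
Mt1: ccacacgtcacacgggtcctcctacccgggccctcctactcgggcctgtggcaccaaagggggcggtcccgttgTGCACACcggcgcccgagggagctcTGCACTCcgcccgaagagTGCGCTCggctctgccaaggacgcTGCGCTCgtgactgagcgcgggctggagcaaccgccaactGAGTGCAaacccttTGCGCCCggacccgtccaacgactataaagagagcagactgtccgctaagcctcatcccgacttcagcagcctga

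Stress genes gave mixed directions, and their counts stand beside 14.7% higher and 18.9% lower among all genes. Of 26 tested genes of oxidative stress defence, 8 were higher and 5 lower (median 0.43), and leaving out 1 loaded library gave 4 to 8 higher and total-read scaling 4. Sod2, the mitochondrial superoxide dismutase, which inflammation induces, measured 155, 377 and 57.6 FPKM against 29.6, 28.6 and 29.0 FPKM (2.33, SE 0.51). Cat, encoding catalase, measured 30.9, 43.8 and 29.8 FPKM against 147, 69.3 and 124 FPKM (-1.63, SE 0.27), and Prdx2, the peroxiredoxin abundant in red cells, measured 118, 135 and 94.7 FPKM against 505, 307 and 443 FPKM (-1.83, SE 0.23). The lower genes moved with the erythroid markers Slc4a1 and Klf1, whose values are given above and lay under titanium in all alloy libraries, and the part of red cell precursors was not tested. Of 24 tested genes of Atf4 and the unfolded protein response 6 were lower and 1 (Ddit3) higher. The call of Ddit3 was lost without any 1 of 5 loaded libraries and under 4 other settings, total-read scaling among them (0.54). Asns, asparagine synthetase, measured 7.26, 7.45 and 4.54 FPKM against 38.1, 20.2 and 29.6 FPKM (-2.01, SE 0.27). Of 15 tested heat shock genes 5 were higher and 1 (Hsp90aa1) lower. The lower count was 3 without replicate 2 of the alloy, 2 without its replicate 1 or replicate 2 of loaded cpTi, and 4 under total-read scaling. The higher ones included Hspb1, a small heat shock protein of muscle and other cells, with 37.2, 66.7 and 37.7 FPKM against 4.70, 11.1 and 6.84 FPKM (2.51, SE 0.34). Of 20 tested hypoxia and glycolysis genes 5 were higher and 1 lower, and 3 were higher without replicate 3 of the alloy, without replicate 1 or 3 of loaded cpTi or under total-read scaling. Without replicate 2 of the alloy 2 were lower. The medians of these 3 lists were 0.11, 0.11 and 0.19. The first pair became -0.04 and -0.06 under total-read scaling, and the hypoxia median became -0.09 without replicate 2 of the alloy.

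Transcripts of the mitochondrial genome were higher, while most nuclear genes of the same complexes were not called. Of 13 tested mitochondrial protein genes, 13 were higher (median 1.85), or 1.39 without replicate 2 of the alloy. After quantile normalization 7 of the 13 were called higher, the median was 0.70, and the calls of Mt-nd4 (0.46), Mt-nd1 (0.55), Mt-atp6 (0.12) and Mt-co3 (0.44) were lost. Mt-co1, a subunit of cytochrome oxidase and the gene with the highest level of all called genes, measured 24587, 61939 and 23448 FPKM against 8449, 8164 and 8067 FPKM (2.00, SE 0.40, adjusted p = 0.00327). Mt-nd6, a subunit of complex I, measured 1861, 4309 and 2257 FPKM against 647, 587 and 550.5 FPKM (2.14, SE 0.31). Replicate 2 was the highest alloy library for both genes, and all alloy libraries exceeded all titanium libraries. Of 27 tested nuclear genes of oxidative phosphorylation 3 were higher and 2 lower (median -0.01), under the 14.7% and 18.9% of all genes. None was higher without replicate 1 or 2 of loaded Nb3 alloy or without replicate 1 or 2 of loaded cpTi. Under total-read scaling or quantile normalization 5 were lower, and with 1 loaded library left out 0 or 1.

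Without loading the same 2 materials gave no called gene. Limma called 0 of the 15268 genes between non-loaded Nb3 alloy and non-loaded cpTi, limma-voom also called 0, and 470 genes had an unadjusted p under 0.05. An absolute log2 difference of at least 1 was reached by 252 genes without loading and by 2626 with it. The interaction test, which asks whether the material difference itself changed with loading, called 3089 genes (20.2%), 1285 (8.42%) higher and 1804 (11.8%) lower under loading. Of the 5123 genes called under loading, 2999 were called by the interaction in the same direction and 0 in the opposite one. For Mpo the material difference was 0.23 without loading (95% confidence interval -0.37 to 0.82) and -8.20 with it. For Slc4a1 it was -0.27 (-1.40 to 0.85) and -6.90, and for Arg1 it was -0.46 (-1.71 to 0.79) and 4.79. The intervals of these 3 genes without loading included 0. Thbs2 measured lower beside the alloy without loading, at -2.17 (-3.99 to -0.35). So did Mfap4, an elastic fibre protein, at -2.66 (-4.41 to -0.92) against 3.26 with loading. Neither was called without loading. By list, the interaction called 26 of 27 erythroid genes, 33 of 33 mitosis genes and 12 of 15 primary granule genes lower, and 15 of 24 collagen genes and 16 of 20 nerve genes higher. It called 3 of 28 osteoblast genes higher and 0 of 17 osteocyte genes. The median difference without loading was -0.39 for the collagen list and -0.79 for the nerve list, opposite in sign to that with loading. These differences enter the interaction values of both lists, so their counts do not come from the loaded libraries alone. For the erythroid, mitosis and primary granule lists the median without loading was -0.27, 0.03 and 0.26.

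**Figure D5:**
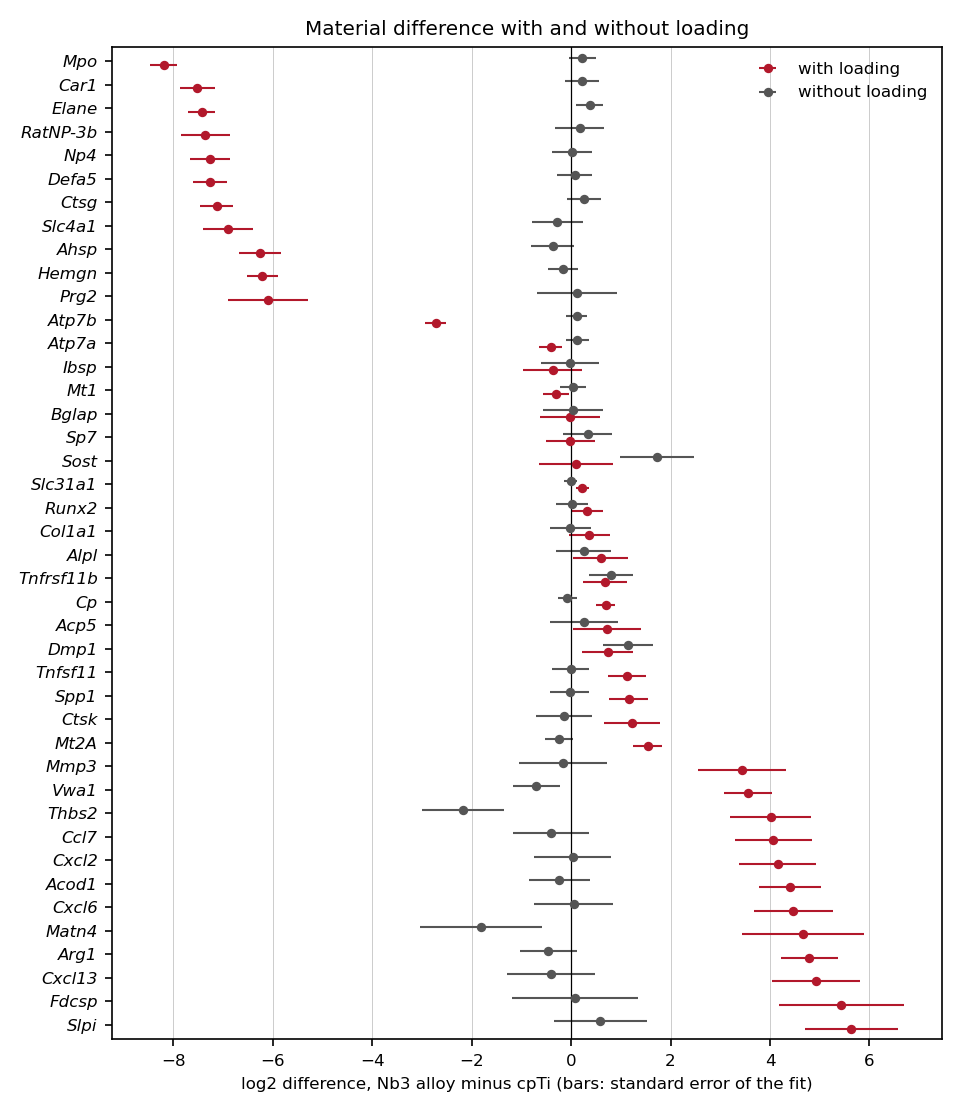
Material difference, Nb3 alloy minus cpTi, on the log2(FPKM + 1) scale for 23 genes with the largest called differences and the bone and metal panels; red points with loading, dark grey points without, and bars show the standard error of the fit. The blood-forming genes at the top lie between -8.20 and -6.09 with loading and near 0 without; most bone genes lie near each other in both states, with Sost higher without loading, and the red points of the genes at the bottom lie right of the grey ones.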

How the data were processed

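Libraries from polyA RNA (TRIzol, NEBNext Ultra) of bone around implants were compared, 3 per group in 4 groups. The authors deposited a table of FPKM values per gene and library. The submitters' processing notes name DESeq2 1.20.0, featureCounts 1.5.0-p3, HISAT2 2.0.5, CASAVA 1.8 and fastp. For the genome build, the annotation and strandedness: not given in the sources used here. Of each library's values, 100% came out as whole reads within 0.01 read, so reads per gene were recovered. The implied depth followed size factors (ratio 0.992 to 1.02), not total reads. Recovered reads served only for depth and alternatives.

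FPKM are not counts, so log2(FPKM + 1) was fitted with limma 3.58.1 (R 4.3.3, statmod 1.5.0) for the 15268 genes at 1 FPKM in at least 3 libraries. The fit had 4 group means over 12 libraries, 8 residual degrees of freedom and a trended, robust prior, with Benjamini-Hochberg adjustment. The pseudocount understates differences of low genes. The same fit gave the material difference without loading and the interaction. The fit was also run on simulated data with few changed genes and the same spread in all groups. These data differ from that setting, so the run does not show how the fit performs here. Tables and figures used matplotlib 3.10.9, pandas 2.3.3, numpy 2.4.6 and scipy 1.17.1 under Python 3.11.15.

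Of 1175 genes in 55 lists, 63 were not found. Lists, members and named genes were chosen with earlier results of these data known. Named were the 12 called genes with the largest excess and the 12 with the largest deficit, without overlap and with a mean of at least 1 FPKM, up to 6 called members per list and direction by smallest p, fixed bone and metal panels, 5 highest and 5 lowest interaction genes and the 3 most abundant called genes per direction. Some items are not reported here. Promoters come from RefSeq (GRCr8). Alternatives covered scaling, filter, pseudocount, test, replicate block and leaving out each library.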

Additional observations from a re-analysis of the deposited data

Results flagged for a closer look

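The interaction test of limma found 3089 genes whose material difference itself changed with loading, and the named genes among them are given here as log2 differences, loaded minus non-loaded. Among genes higher beside the loaded alloy these were 6.47 for Matn4, 6.18 for Thbs2, 5.92 for Mfap4, 5.33 for Cxcl13, 5.25 for Arg1 and 5.05 for Slpi. The interaction values were 4.64 for Acod1, 4.47 for Ccl7, 4.41 for Cxcl6, 4.26 for Vwa1, a matrix protein, and 4.12 for Cxcl2. For the metallothionein gene Mt2A the value was 1.78, and for the mitochondrial genes Mt-co1, Mt-atp6 and Mt-co3 it was 2.29, 2.19 and 2.15.

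Among genes lower beside the loaded alloy the neutrophil genes had -8.43 for Mpo, -7.80 for Elane, -7.39 for Ctsg, -7.54 for RatNP-3b, -7.34 for Defa5, -7.28 for Np4 and -5.07 for S100a8. The red cell genes had -7.74 for Car1, -6.63 for Slc4a1, -6.05 for Hemgn, -5.88 for Ahsp, -4.84 for Hbb-b1 and -4.55 for Hba-a2. The values were -6.21 for the eosinophil gene Prg2 and -2.84 for the copper pump gene Atp7b. The 3 libraries of loaded Nb3 alloy, which stood apart from the other 9, enter each of these values, and their share of mitochondrial reads differed as well; its part was not tested.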

How the results depend on the processing

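The 5123 genes called under loading became 5040 to 5216 with recomputed size factors, nuclear reads, another pseudocount, a CPM filter, limma-voom and no trend, 4702 without the filter and 3963 with only the groups compared. The replicate numbers did not pair the libraries (correlations of same-numbered loaded libraries -0.0631, -0.142 and -0.00140, and 0 of 3 alloy libraries closest to its own number), and a replicate block gave 4591 genes, 0 without loading and 2608 for the interaction.

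Genes higher under loading numbered 1359 with total-read scaling. A log2 difference of at least 1 left 2275 genes, 884 higher and 1391 lower. Leaving out 1 library gave 3429 to 4838 genes, 1353 to 2108 higher and 2076 to 2800 lower, with 1353 higher without replicate 1 and 1455 without replicate 3 of loaded cpTi. Without loading, no filter gave 1 gene, 1 higher, and leaving out 1 library gave 0 to 4, 0 to 0 higher and 0 to 4 lower, the 4 without replicate 1 of non-loaded cpTi. The interaction gave 844 higher with total reads. Leaving out 1 library gave 1986 to 3159 genes, 738 to 1292 higher and 1248 to 1914 lower, with 1986 (738 higher) without replicate 1 of loaded cpTi, 824 higher without its replicate 3, 2018 (751 higher) without replicate 3 of non-loaded Nb3 alloy and 767 higher without replicate 2 of non-loaded cpTi.

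Of the named genes, 5 uncalled ones changed sign. Sp7 became 0.00301 with quantile normalization and spanned -0.42 to 0.66 when 1 loaded library was left out, at 0.66 without replicate 2 of loaded Nb3 alloy and 0.23 without replicate 2 of loaded cpTi. Likewise Bglap spanned -0.46 to 0.80, at 0.80 without replicate 2 of the alloy and 0.15 and 0.00714 without replicates 2 and 3 of loaded cpTi, and Ibsp -1.03 to 0.45, at 0.45 without replicate 2 of the alloy. Col1a1 became -0.52 with quantile normalization. Sost became -0.0798 with total reads and spanned -0.44 to 0.81, at -0.44 and -0.07 without replicates 1 and 3 of the alloy, and at -0.03 and -0.18 without replicates 1 and 3 of loaded cpTi. Without replicate 2 of the alloy Alpl (1.38), Dmp1 (1.37), Acp5 (1.56) and Ctsk (1.83) were called. Of 110 counts of higher or lower genes per list, 25 moved by over 1.5 times under total-read scaling, 20 with only the groups compared, 12 to 33 when 1 loaded library was left out and 1 to 11 under the other settings. The causes were not tested. With 3 libraries per group, genes near 0 in both groups are limited by depth.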

Other observations

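Beyond protein-coding genes, antibody variable segments were lower beside the loaded alloy. Of 31 tested, 14 were lower and 0 higher (median log2 difference -2.30), beside 18.9% and 14.7% of all genes. Of 17 tested mitochondrial transfer RNA genes, 12 were higher and 0 lower (median 1.95), the direction of the mitochondrial protein genes. Of 228 tested small nucleolar RNA genes 23 were lower and 0 higher (median -0.44), and of 93 tested small nuclear RNA genes 11 were lower and 1 higher (median -0.50). In both classes the share called lower was under the 18.9% of all genes. Long noncoding RNA genes went both ways, with 84 of 520 higher and 63 lower (median 0.05), beside 14.7% and 18.9% of all genes. Small RNAs without a polyA tail are poorly captured by polyA libraries, so these values are given as listed in the table.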
